A study of Rattus norvegicus with 30 samples.

Results

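The expression of 9 neocortical layer identity genes was examined in rat brain RNA-seq: Cux1, Cux2, Rorb and Rasgrf2 as genes of upper layer neurons, and Fezf2, Bcl11b, Tbr1, Foxp2 and Tle4 as genes of deep layer neurons. The genes were taken by their symbols from the 17134 genes of the table. Of the 9 symbols, 8 were found, 3 upper and 5 deep, and Rasgrf2 was not matched by its symbol and is not analysed here. In the table the members carry the Ensembl identifiers ENSRNOG00000001424 (Cux1), ENSRNOG00000001259 (Cux2), ENSRNOG00000013413 (Rorb), ENSRNOG00000009206 (Fezf2), ENSRNOG00000005776 (Bcl11b), ENSRNOG00000005049 (Tbr1), ENSRNOG00000054508 (Foxp2) and ENSRNOG00000013239 (Tle4). The libraries came from 30 male rats on a normal diet, 10 per group, with 1 library per rat. Wild-type (WT) rats express the endogenous rat amylin, a pancreatic hormone that does not form amyloid in this species. HIP rats carry human amylin in the pancreatic β-cells and develop type-2 diabetes. AKO rats are amylin knockouts. The amylin gene, Iapp, was not matched by its symbol, so the knockout was not checked here. According to the methods, HIP and WT rats were 15 to 16 months old, and no age is given for the AKO rats that were sequenced. The tissue is called frontal cortex in the sample annotation, cerebral cortex in the methods and hippocampus in the results of the study.

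The neocortex is built of layers whose neurons differ in their targets. Upper layer neurons connect mainly within the cortex and are marked by the homeodomain factors Cux1 and Cux2, while the nuclear receptor Rorb marks layer 4 neurons, which receive input from the thalamus. Deep layer neurons project out of the cortex. Among their factors, Fezf2 and Bcl11b (Ctip2) specify neurons that project to the brainstem and spinal cord, Tbr1 specifies neurons that project to the thalamus and represses Fezf2, Foxp2 is a forkhead factor of layer 6, and Tle4 is a Groucho family corepressor of the same layer. Several of these genes are also used outside the neocortex, Bcl11b and Foxp2 in striatal neurons, Bcl11b and Tbr1 in the olfactory bulb, and Foxp2 and Rorb in other brain regions.

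RefSeq promoter windows of 300 bases on the GRCr8 build, from 250 bases before to 50 bases after the annotated start, were found for 6 of the 8 genes, namely Cux1, Cux2, Rorb, Fezf2, Tbr1 and Tle4. The windows of 4 genes are shown, Cux2 and Rorb because they were the pair of members whose levels moved together most closely, and Fezf2 and Tbr1 because they were at or near 0 in a library that kept Cux1. Each is written 5′ to 3′ on the strand of the gene, and the capitals mark the GC box GGGCGG and the homeobox core TAATTA, searched on both strands (the reverse complement of the GC box is CCGCCC).
Cux2: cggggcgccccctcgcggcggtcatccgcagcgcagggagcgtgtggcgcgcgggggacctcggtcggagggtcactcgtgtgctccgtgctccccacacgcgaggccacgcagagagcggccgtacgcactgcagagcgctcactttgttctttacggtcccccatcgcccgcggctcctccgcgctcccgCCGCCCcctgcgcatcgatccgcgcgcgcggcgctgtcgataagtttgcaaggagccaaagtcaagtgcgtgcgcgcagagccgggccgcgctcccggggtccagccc
Rorb: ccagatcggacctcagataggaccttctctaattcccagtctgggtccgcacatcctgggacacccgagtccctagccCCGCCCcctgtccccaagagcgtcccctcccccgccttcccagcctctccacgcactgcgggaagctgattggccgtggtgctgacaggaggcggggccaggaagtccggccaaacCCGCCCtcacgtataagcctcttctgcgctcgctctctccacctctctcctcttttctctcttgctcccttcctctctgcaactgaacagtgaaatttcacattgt
Fezf2: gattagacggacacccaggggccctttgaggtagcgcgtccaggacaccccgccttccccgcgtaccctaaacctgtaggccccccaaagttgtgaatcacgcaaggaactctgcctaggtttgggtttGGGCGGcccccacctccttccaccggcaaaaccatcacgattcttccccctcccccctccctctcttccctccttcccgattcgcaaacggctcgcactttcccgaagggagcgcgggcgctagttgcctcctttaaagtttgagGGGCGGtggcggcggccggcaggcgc
Tbr1: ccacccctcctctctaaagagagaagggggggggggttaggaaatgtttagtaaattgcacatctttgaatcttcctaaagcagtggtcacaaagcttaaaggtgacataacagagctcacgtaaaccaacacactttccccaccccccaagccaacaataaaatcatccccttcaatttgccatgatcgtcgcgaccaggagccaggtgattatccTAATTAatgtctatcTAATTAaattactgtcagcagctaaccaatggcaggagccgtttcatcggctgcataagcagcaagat
These windows are chr12:40179032-40179331 (plus strand) for Cux2, chr1:225970924-225971223 (minus strand) for Rorb, chr15:15203943-15204242 (plus strand) for Fezf2 and chr3:66759553-66759852 (plus strand) for Tbr1. The GC box, the site of Sp family factors, was found in 4 of the 6 member windows (1 in Cux1, 1 in Cux2, 2 in Rorb and 2 in Fezf2) and in 33.1% of 33465 windows of the same length. The core TAATTA was found in Tbr1 only among the 6, in 2 places, and in 5.4% of all windows. The E-box CANNTG was found in 3 of the 6 and in 72.1% of all windows, and the TATA box TATAAA in none of the 6 and in 14.2% of all windows. The GC content was 73.0% in Cux2, 60.7% in Rorb, 63.3% in Fezf2 and 45.3% in Tbr1, beside a median of 51.7% over all windows. These matches describe letters in the windows, and binding was not measured.

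Values are normalized counts, that is, reads per gene divided by a factor for the depth of the library. Totals were 15.4 to 18.0 M in the 30 rats, and the estimated depth was 12.9 to 23.6 M reads, with a median of 19.1 M in the WT, 15.7 M in the HIP and 16.1 M in the AKO group. The cortical label was checked with Slc17a7, the glutamate transporter of cortical excitatory neurons, and with markers of other regions. Gabra6, a GABA receptor subunit of cerebellar granule cells, was above 100 in 2 rats, WT rat 10RT43 at 17979 and HIP rat 12RT23 at 1564. The summed level of 12 cerebellar markers was 80933 in 10RT43 and 9964 in 12RT23, and 620 to 1726 in the other 28 rats. Gabra6 is itself on this list, and without it the sums were 62955, 8400.1 and 605 to 1720.4. HIP rat 10RT46 held Tph1 of the pineal gland at 19081 and Ttr of the choroid plexus at 14881, and AKO rat 7AKO19 held Ttr at 3445. Eomes, a T-box factor of olfactory bulb projection neurons and of cortical progenitors, was above 100 in 7 rats. What part these libraries play in each result was not tested beyond the values without them given below. In bulk tissue, fewer cells of a type and less RNA per cell cannot be told apart.

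The layer genes set 10RT43 apart from the other WT rats. In this library 7 of the 8 members lay below every one of the other 9 WT rats, beside 32.02% of 15504 expressed genes (mean over the 28 rats with low Gabra6 of 10 or more). Fezf2 was at 0 in 10RT43 and at 417 to 857 in the other 9 WT rats. A count of 3 reads would correspond to 3.59 normalized counts in this library. Bcl11b was at 7.18, about 6 estimated reads, against 501 to 1586. Tbr1 was at 16.7, about 14 estimated reads, against 1439 to 3190, which is 0.574% of the median of the others. The corresponding share was 0.688% for Bcl11b. These 3 factors specify the neurons that project out of the cortex, and all were at less than 1% of their usual WT level.

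The other members were less far below the other WT rats in 10RT43. Rorb was at 43.1 against 77.9 to 585 in the other 9 WT rats (13.3% of their median), Cux2 at 441 against 1429 to 2663 (20.9%), Foxp2 at 62.2 against 134.1 to 249 (36.4%) and Tle4 at 627 against 893 to 1187 (59.4%). Cux1 was the exception, at 2091 within the 1135 to 2168 of the others (131.3%). Emx1, a homeobox gene of the dorsal telencephalon, was at 0 as well, while Slc17a7 was at 12337 (42.4%) and Neurod2, a neuronal differentiation factor, at 1899 was above the others (188%). Of 18 further upper layer genes, 11 lay below the other 9 WT rats and 3 above. Of 26 further deep layer genes, 16 lay below and 7 above. Among 22 partners in layer fate, 14 lay below and 7 above, and among 12 paralogues of the members 3 lay below and 3 above. Over the 15504 expressed genes, 32.02% lay below and 29.95% above. The share below was larger than that of all genes in the layer and partner lists, but not among the paralogues.

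HIP rat 12RT23 was different. Of the 8 members, 7 lay within the range of the other 9 HIP rats, and only Foxp2 lay below it, at 77.8 against 116 to 221 (49.2% of the median). In this library 10.7% of all genes were below and 12.3% above the other 9 HIP rats. Fezf2 was at 839.5, Bcl11b at 620.1, Tbr1 at 2379 and Slc17a7 at 29354, all inside the range of the group. Of the 26 further deep layer genes, 6 lay below and 3 above the other 9 HIP rats. Of the 18 further upper layer genes, 5 lay above and 0 below. The cerebellar signal of 12RT23 was much smaller than that of 10RT43, with Gabra6 at 1564 against 17979, so the libraries are not a matched pair, and its part in either was not tested.

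**Figure D1:**
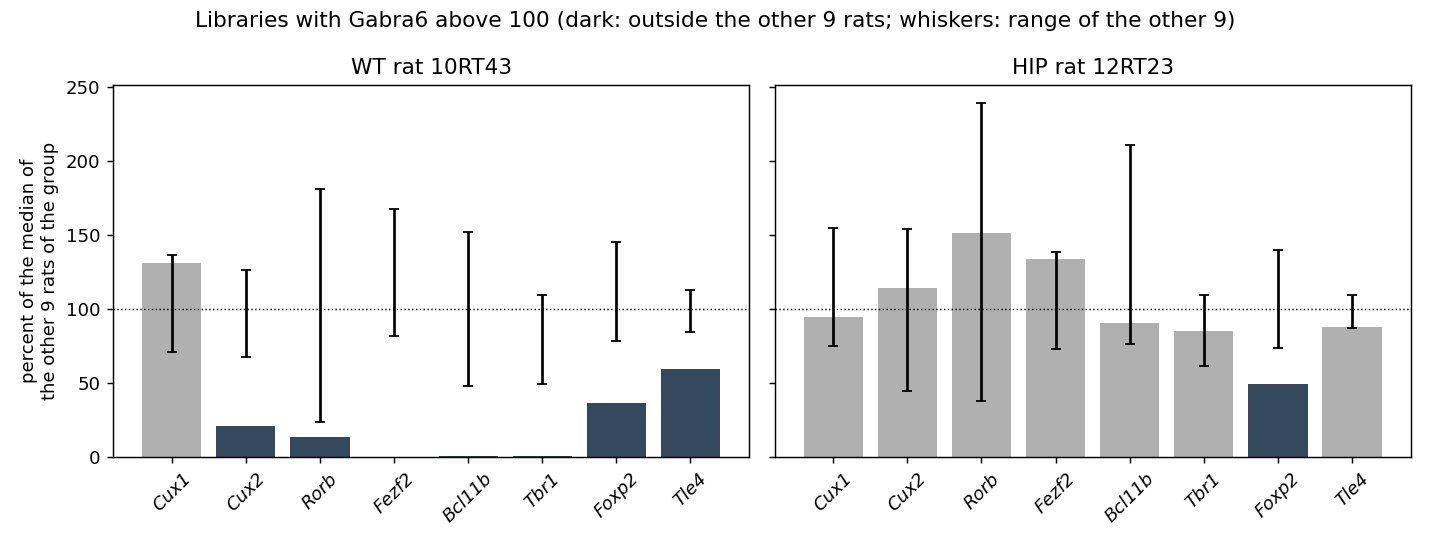
Level of each layer identity gene in the 2 libraries with Gabra6 above 100, as a percent of the median of the other 9 rats of the group (bars, linear axis), with the range of those 9 rats as whiskers. In 10RT43 all bars but Cux1 lie under the whiskers, with Fezf2 at 0, and in 12RT23 only Foxp2 does.

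Levels are given as the lowest, the median and the highest normalized count of the 10 rats of a group. Among the upper layer genes, Cux1 was at 1135, 1744 and 2168 in WT rats, 981, 1274 and 2019 in HIP rats and 1028, 1387 and 1758 in AKO rats. The groups overlapped, but 9 of the 10 AKO rats were below the WT median. Cux2 was at 441, 1850.4 and 2663 in WT rats, 732, 1758 and 2526 in HIP rats and 1231, 1599 and 2176 in AKO rats. Its lowest values belonged to 10RT43 among WT rats and to 10RT46, the library with pineal and choroid plexus transcripts, among HIP rats. Rorb was at 43.1, 249 and 585 in WT rats, 84.4, 281 and 534 in HIP rats and 81.4, 160.5 and 311 in AKO rats. Above the highest AKO value of Rorb, in 7AKO30, lay WT rats 10RT38, 10RT39, 10RT44, 10RT45 and 10RT47. HIP rats 10RT41, 10RT42, 10RT48, 10RT52 and 12RT23 lay above it as well.

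Among the deep layer genes, Fezf2 was at 0, 499 and 857 in WT rats, 461, 639 and 869.9 in HIP rats and 339.6, 631 and 875 in AKO rats. Bcl11b was at 7.18, 968 and 1586 in WT rats, 520.5, 667 and 1441 in HIP rats and 394, 999.9 and 1686 in AKO rats. Apart from 10RT43, both genes overlapped widely between the groups. Tbr1 was at 16.7, 2793 and 3190 in WT rats, 1708, 2612 and 3052 in HIP rats and 1433, 2387 and 2843 in AKO rats. Foxp2 was at 62.2, 170.5 and 249 in WT rats, 77.8, 157.03 and 221 in HIP rats and 70.5, 159.4 and 281 in AKO rats. Tle4 was at 627, 1045 and 1187 in WT rats, 910.0, 1032 and 1144 in HIP rats and 655, 927 and 1038 in AKO rats. All 10 AKO rats lay below the WT median of Tle4 although the ranges overlapped.

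**Figure D2:**
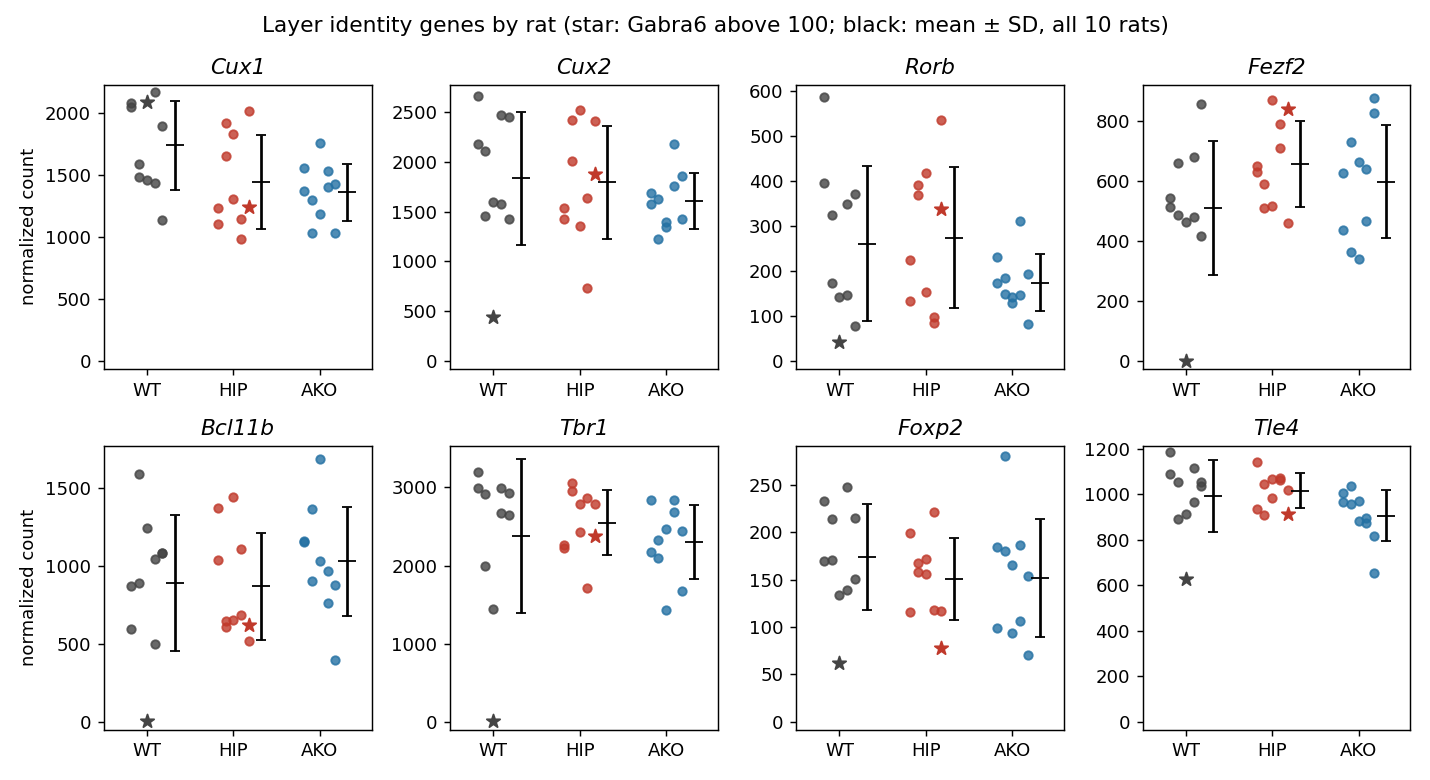
Normalized count of each layer identity gene (linear axes from 0) in each of the 30 rats by group, with stars for the libraries with Gabra6 above 100 and the mean ± SD of all 10 rats in black. The 10RT43 star lies at or near 0 for Fezf2, Bcl11b and Tbr1, and the groups overlap for every gene.

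Without the libraries with Gabra6 above 100, the within-group SD over 28 rats was 0.83 for Rorb on the log2 scale, larger than for 96.0% of the same 15504 genes, and 0.54 for Bcl11b. It was 0.45 for Foxp2, 0.41 for Cux2, 0.38 for Fezf2 and 0.32 for both Tbr1 and Cux1, beside 0.27 for the median gene. Tle4 had an SD of 0.15, larger than in only 11.9% of genes. In these 28 rats Rorb was thus the most variable member on the log2 scale and Tle4 the steadiest. With all rats the values near 0 in 10RT43 gave Fezf2, Bcl11b and Tbr1 the widest WT ranges.

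The effect of pancreatic human amylin was examined by comparing HIP and WT rats. None of the 8 members differed at an unadjusted p under 0.05 (limma, two-sided), where 2.57% of the 17085 genes tested did, and no gene of the table passed after adjustment (0% at an adjusted p under 0.05). Cux1 came closest, at 1444 ± 377 in HIP against 1739.6 ± 361 in WT rats (mean ± SD, n = 10 each). Its log2 fold change was −0.28 ± 0.15 (SE, limma, p = 0.0657, adjusted p = 0.999). With 1 rat left out, its p ran from 0.0215 (without 10RT57) to 0.130 (without 10RT46), and was under 0.05 also without 10RT48, 10RT52 or 10RT42. Without the libraries with Gabra6 above 100 the log2 fold change was −0.23 (limma, p = 0.146). It was −0.16 (p = 0.280) without those with Ttr above 1000 as well, and −0.14 (p = 0.436) without those with Eomes above 100 too. The log2 fold changes of the 3 deep layer genes that were near 0 in 10RT43 were 1.13 ± 0.85 for Fezf2, 0.68 ± 0.68 for Tbr1 and 0.48 ± 0.67 for Bcl11b (SE). Without the 2 libraries with Gabra6 above 100 they were 0.17 ± 0.14, −0.03 ± 0.14 and −0.16 ± 0.23, so that the direction turned for Tbr1 and Bcl11b, as it did for Cux2, Rorb and Tle4. In that fit, 1 of the 8 members was higher in HIP rats, against 6 of 8 with all rats, and none passed the test, beside 2.18% of genes.

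Loss of amylin was examined by comparing AKO and WT rats, the same WT rats as above. The names of AKO rats hold KAH or AKO and those of WT and HIP rats hold RT. What the names stand for is not given, and nor is the age of the AKO rats. Genotype cannot be told apart from either in the comparisons with AKO rats. Cux1 was lower in AKO rats, at 1359 ± 233 against 1739.6 ± 361 (mean ± SD, n = 10 each), with a log2 fold change of −0.35 ± 0.12 (SE, limma, p = 0.0105), and 9 of 10 AKO rats were below the WT median. It was the only member of 8 with an unadjusted p under 0.05. Of the 17058 genes tested, 9.34% passed this threshold, 4.12% passed it and were lower in AKO rats, and 0.0997% passed after adjustment, none of them a member (adjusted p = 0.379 for Cux1). The unadjusted p for Cux1 stayed under 0.05 when each rat was left out in turn, from 0.00167 to 0.0230.

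Without 10RT43, the AKO comparison gave 3 members with an unadjusted p under 0.05, all lower in AKO rats, beside 4.7% of genes lower in AKO rats in the same fit. Cux1 had a log2 fold change of −0.31 ± 0.12 (SE, limma, p = 0.0188), with 9 of 10 AKO rats below the median of the 9 WT rats. Cux2 was at 1609 ± 279 in AKO rats and 1992 ± 483 in 9 WT rats, a log2 fold change of −0.29 ± 0.13 (limma, p = 0.0374), against −0.08 ± 0.23 with all rats. Tle4 was at 907 ± 111 and 1035 ± 95.3, a log2 fold change of −0.19 ± 0.08 (limma, p = 0.0232). All 10 AKO rats were below the median of the 9 WT rats for Tle4, although the ranges overlapped. The same held for Rorb and for Tbr1 (limma, p = 0.206), which did not pass. Rorb had the largest fold change among the members, −0.55 ± 0.31 (limma, p = 0.0885), and did not pass. Fezf2 and Bcl11b, at 0.95 ± 0.86 and 0.73 ± 0.67 with all rats, were at 0.04 ± 0.18 and 0.05 ± 0.23. Their adjusted p-values, like those of all members, were above 0.05 (smallest adjusted p = 0.401, limma).

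HIP rats were also set against AKO rats, the same animals as in the comparisons above. Tle4 was higher in HIP rats, at 1016 ± 77.8 against 907 ± 111 (mean ± SD, n = 10 each), with a log2 fold change of 0.17 ± 0.07 (SE, limma, p = 0.0312, adjusted p = 0.344). It was the only member of 8 to pass, where 12.7% of the 17092 genes tested passed and 5.85% were higher in HIP rats, and after adjustment 0.17% of genes and no member passed. The p for Tle4 was 0.0599 without 10RT37, 0.0516 without 6KAH98 and 0.0561 without 7AKO42. Its lowest AKO value, 655, was that of 6KAH98. Rorb, at 274 ± 155.98 and 174 ± 62.9, had a log2 fold change of 0.48 ± 0.31 (limma, p = 0.134), and 0.64 without 10RT46 (p = 0.0372). The remaining members lay between −0.25 (Bcl11b) and 0.18 (Fezf2) on the log2 scale.

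**Figure D3:**
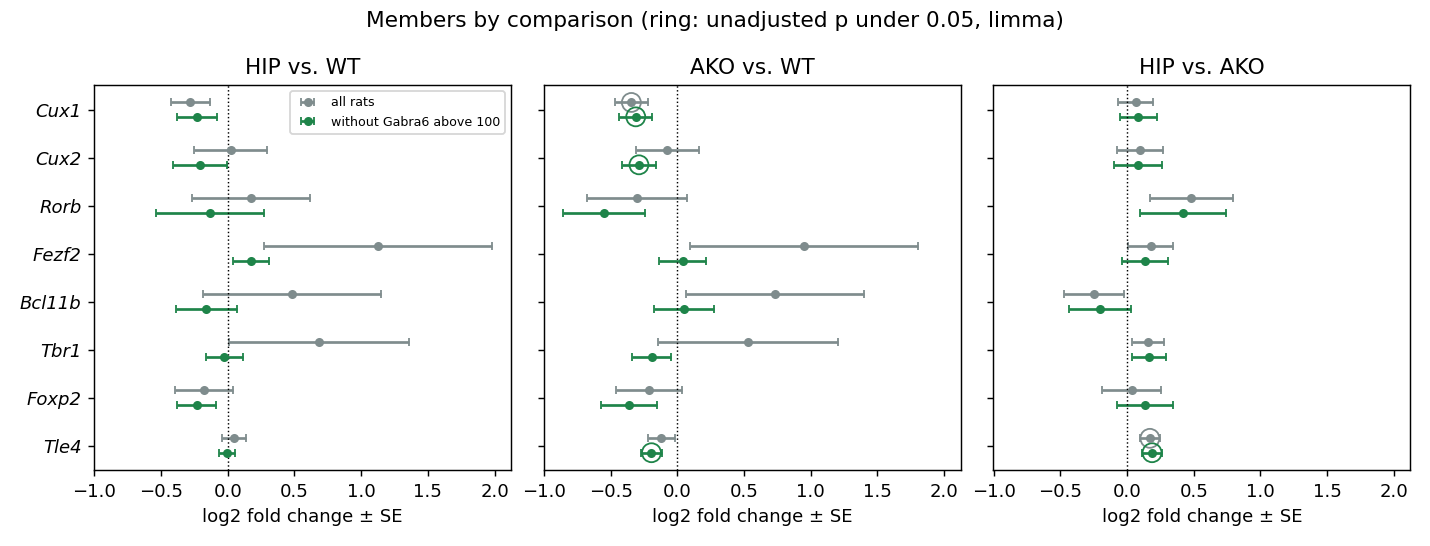
Log2 fold change ± SE of each layer identity gene in the 3 comparisons, with all rats (grey) and without the libraries with Gabra6 above 100 (green), and rings where the unadjusted p was under 0.05. The large positive values of Fezf2, Bcl11b and Tbr1 against WT rats move to near 0 without 10RT43, while Cux1 in AKO vs. WT rats is ringed in both.

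To set upper against deep layers, the mean of log2(normalized count + 1) over the 5 deep layer genes was subtracted from that over the 3 upper layer genes in each rat, as a description without a test. The difference was 0.65 ± 1.28 in WT rats, 0.18 ± 0.70 in HIP rats and 0.03 ± 0.30 in AKO rats (SD, n = 10 per group). In 10RT43 it was 3.94, from an upper mean of 8.43 and a deep mean of 4.49. The other 9 WT rats lay between −0.71 (10RT57) and 1.06 (10RT38), with a mean of 0.28 ± 0.59 (SD). HIP rats lay between −0.70 (10RT46) and 1.19 (10RT48), and AKO rats between −0.38 and 0.44. The 3 groups overlapped, with the narrowest spread in AKO rats. The mean difference of HIP minus WT rats was −0.46 with all rats, −0.14 without the libraries with Gabra6 above 100 and −0.0344 without those with Ttr above 1000 as well, and it turned to 0.09 without those with Eomes above 100 too. That of HIP minus AKO rats was 0.16 with all rats, 0.045 without 10RT48 and 0.36 without all of these libraries, and that of AKO minus WT rats −0.62, or −0.25 without 10RT43. Without the libraries with Gabra6 above 100, the upper mean was 9.85 ± 0.52 in 9 WT rats, 9.66 ± 0.62 in 9 HIP rats and 9.46 ± 0.25 in 10 AKO rats. The deep mean was 9.57 ± 0.18, 9.52 ± 0.20 and 9.44 ± 0.24 in the same rats (SD).

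**Figure D4:**
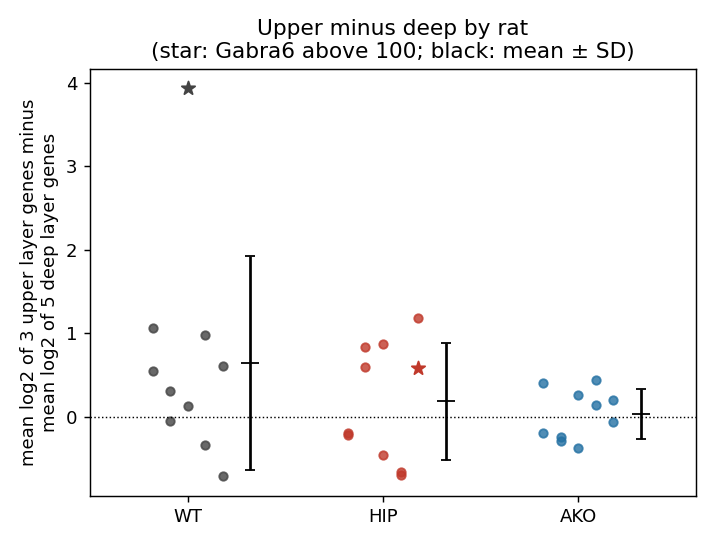
Mean log2 of the 3 upper layer genes minus the mean log2 of the 5 deep layer genes in each rat, with stars for libraries with Gabra6 above 100 and the mean ± SD of all 10 rats in black. Only 10RT43, at 3.94, stands above 1.19, and AKO rats span the narrowest range.

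Whether the members moved together was described over the 28 rats with Gabra6 at or below 100, as the correlation of log2 values after the group mean was subtracted. These points share the normalization and the dissection of each rat, and no test was made. All 3 pairs of upper layer genes were positively correlated, with r from 0.73 to 0.83, the highest for Cux2 and Rorb (r = 0.83, rho = 0.86, 0.82 without the 2 farthest rats). Of the 10 pairs of deep layer genes, 7 were positive, with r from −0.32 to 0.67. Of the 15 pairs of an upper and a deep layer gene, 6 were positive, from −0.63 for Cux1 and Fezf2 to 0.67 for Cux2 and Tbr1. Tbr1 was positively correlated with all 3 upper layer genes (r of 0.31 to 0.67) and Fezf2 negatively with all 3 (−0.63 to −0.25).

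The genes whose pattern was most like each member were found in the same way among genes with a symbol. For the upper layer genes these were Fstl4, Ppm1l and Plcb4 for Cux1 (highest r = 0.91), Adgrl1, Atrnl1 and Ipo9 for Cux2 (0.93), and Kcna2, a potassium channel subunit of axons, Gpr158 and Lmtk2 for Rorb (0.94). For the deep layer genes they were Fhl2, Slc25a22 and Kcnmb4 for Fezf2 (0.83), Mctp1, Tacr1, the substance P receptor, and Kdm2b for Bcl11b (0.92), and Chp1, Brsk2 and Nfe2l1 for Tbr1 (0.89). For Foxp2 they were Adcy5, an adenylyl cyclase abundant in the striatum, Tbc1d16 and Gprin3 (0.77), and for Tle4 they were Creb5, Nek7 and Pstpip2 (0.85). No member was among the 3 genes most like another member.

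Markers of neighbouring regions moved with some of the members. The mean level of 7 olfactory bulb markers had an r of 0.72 with Bcl11b (rho = 0.67, 0.69 without the 2 farthest rats) and of −0.71 with Tbr1 (rho = −0.75, −0.56 without them). With the same markers the r was −0.55 for Cux2 (rho = −0.71) and −0.48 for Rorb (rho = −0.63). The remaining members lay between −0.30 (Cux1) and −0.14 (Tle4). Tbr1 also had an r of −0.59 with the hippocampal markers (rho = −0.66) and of −0.55 with the choroid plexus markers (rho = −0.73). Eomes was above 100 in 6 of the 28 rats, 10RT50 and 10RT51 (WT), 10RT49 and 10RT53 (HIP) and 4KAH35 and 6AKO35 (AKO). Their Bcl11b values, 1241 to 1686, were above those of all other 22 rats, at 394 to 1156. Their Tbr1 values were 1433 to 2434, and those of the other 22 rats 1674 to 3190. The mean level of 14 striatal markers had an r of 0.69 with Foxp2 (rho = 0.66, 0.67 without the 2 farthest rats) and of 0.55 with Tle4, and of 0.17 with Bcl11b. Adcy5, the gene most like Foxp2, is itself among these striatal markers, so the 2 likenesses are not separate. Foxp2 was highest, at 281, in 4KAH35, where the summed striatal level, 21769, was only the seventh highest of the 30 rats. The highest sum, 36136, was that of 10RT55, with the next highest Foxp2 at 249, while 4KAH27, at a sum of 34225, held Foxp2 at 185. The part of tissue from these regions in these values was not tested.

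**Figure D5:**
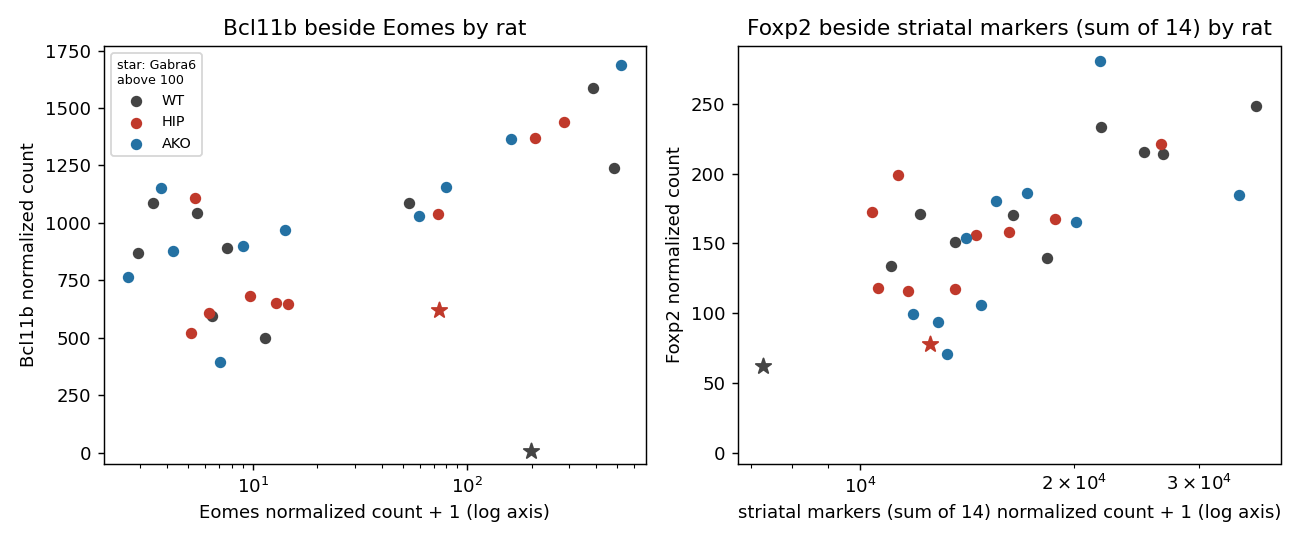
Normalized count of Bcl11b beside Eomes and of Foxp2 beside the summed level of 14 striatal markers (horizontal log axes, with 1 added) in each of the 30 rats, coloured by group, with stars for Gabra6 above 100. The 6 rats with Gabra6 at or below 100 and Eomes above 100 hold the highest Bcl11b values, from 1241 to 1686.

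Without the libraries with Gabra6 or Eomes above 100 or Ttr above 1000, a choice made after the values were seen, 5 members had an unadjusted p under 0.05 in AKO vs. WT rats (limma, 7 rats each), all lower in AKO rats, where 5.11% of genes were lower at this threshold. They were Cux1 at a log2 fold change of −0.36, Cux2 at −0.31, Tbr1 at −0.26, Foxp2 at −0.55 and Tle4 at −0.29. In HIP vs. AKO rats Rorb (0.83) and Tle4 (0.23) passed, both higher in HIP rats, beside 6.42% of genes higher. None of the 8 members passed in HIP vs. WT rats (limma), beside 3.56% of genes. The smallest adjusted p of a member in these fits was 0.297 (limma), for Tle4 in AKO vs. WT rats.

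Other layer genes were read from the same fits. Of 18 further upper layer genes, 2 were lower in AKO than in WT rats, beside 4.12% of all genes, led by Plcxd2 (log2 fold change −0.46 ± 0.17 SE, limma, p = 0.0152), and 5 were lower without 10RT43, beside 4.7% of all genes, led by Pou3f2, a POU factor of upper layer neurons (−0.51 ± 0.15, limma, p = 0.00269). Their median log2 fold change was −0.08 with all rats and −0.24 without 10RT43, beside 0.00 and −0.01 over all genes. Of the 18, none passed in HIP vs. WT rats, beside 2.57% of all genes, with Kitlg at the smallest p (limma, p = 0.148). Against AKO rats, 2 were higher in HIP rats, Pou3f2 among them (0.39 ± 0.16, limma, p = 0.0230), and 1 was lower, beside 5.85% and 6.9% of all genes. Some of the 18 genes, Lhx2, Pou3f2 and Pou3f3 among them, also stand in the list of partners.

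Of 26 further deep layer genes, 1 was higher and 1 lower in AKO than in WT rats, and 3 were lower without 10RT43. Of all genes, 5.23% were higher and 4.12% lower, and 4.7% were lower without 10RT43, so the share of the list with all rats was no larger than that of all genes. Parm1 was the lower gene, at 928 ± 202 against 1188 ± 144.1 (mean ± SD, n = 10 each), with a log2 fold change of −0.38 ± 0.11 (SE, limma, p = 0.00279, adjusted p = 0.262). Parm1 also led the 3 genes that were higher in HIP than in AKO rats, at 1290.3 ± 190.1 in HIP rats (0.49 ± 0.11, limma, p = 0.000262, adjusted p = 0.0829), beside 5.85% of all genes. In HIP vs. WT rats, Pcp4, a calmodulin regulator of layer 5 neurons, was the 1 gene that was lower (−0.44 ± 0.21, limma, p = 0.0494), beside 1.46% of all genes, and none passed without the libraries with Gabra6 above 100.

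Of 22 partners in layer fate, 1 gene rose in HIP vs. WT rats with all rats, beside 1.11% of all genes. It was Neurod6, a differentiation factor of cortical excitatory neurons, at 1431 ± 306 against 1099.9 ± 195 (log2 fold change 0.37 ± 0.12 SE, limma, p = 0.00466). Neurod6 also rose without the libraries with Gabra6 above 100 (limma, p = 0.0180), a fit that keeps 10RT46. Its highest HIP values were 1995 in 10RT46 and 1830 in 12RT23, and the other HIP rats reached 1557. None of the 22 partners passed in AKO vs. WT rats with all rats, where Neurod1 had the smallest p (limma, p = 0.118). Without 10RT43, 3 were lower, led by Pou3f2, beside 4.7% of all genes. In HIP vs. AKO rats 4 were higher and 1 lower, beside 5.85% and 6.9% of all genes, with the smallest p for Zfpm2 (0.45 ± 0.18, limma, p = 0.0166). Of 12 paralogues of the members, none passed in any of the 3 comparisons with all rats (smallest p = 0.0576, limma, for Foxp4 in AKO vs. WT rats).

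Lists of cell types and regions were read beside the members. Of all genes, 2.57% passed in HIP vs. WT, 9.34% in AKO vs. WT and 12.7% in HIP vs. AKO rats, and nothing particular to these lists is read from their counts. Of 8 genes of cortical excitatory neurons, which include Tbr1, Neurod6 alone rose in HIP vs. WT rats, none passed in AKO vs. WT rats (smallest p for Slc17a7) and 2 were higher in HIP than in AKO rats. Of 8 genes of inhibitory neurons, Slc32a1, the vesicular GABA transporter, was lower in HIP than in WT rats (log2 fold change −0.38 ± 0.11 SE, limma, p = 0.00210), and 2 were lower in AKO than in WT rats. The 12 cerebellar and 7 olfactory bulb genes held none that passed in any of the 3 comparisons, and nor did the 5 pineal gland and 6 oligodendrocyte genes. Of 14 striatal genes, 2 were lower in HIP than in AKO rats, led by Tac1 (limma, p = 0.0393). Of 10 choroid plexus genes, Aqp1 alone was higher in AKO than in WT rats (limma, p = 0.0332). Of 6 hippocampal genes, Prox1 was higher, and of 7 thalamic genes Prkcd was lower in HIP than in AKO rats (limma, p = 0.0431 and p = 0.0497). Of 6 astrocyte genes, Gfap was lower in HIP than in AKO rats (limma, p = 0.0275). Of 6 microglial genes, 2 were higher in AKO than in WT rats, led by C1qa (0.56 ± 0.12 SE, limma, p = 0.000162, adjusted p = 0.0790), and in HIP vs. AKO rats 1 was higher and 2 lower.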

How the data were processed

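RNA of 1 brain sample per rat was sequenced in 10 WT, 10 HIP and 10 AKO rats, grouped by the genotype in the sample annotation. The authors prepared SMARTER mRNA-Seq libraries, used Partek Flow to align reads to rn7 (the submitters' processing notes list Partek 10.0.22.0228, Bowtie2 and STAR 2.7.8a), counted them on Ensembl105 genes and normalized them with DESeq2. What was deposited is this signal, the authors' normalized counts per gene, which are not whole numbers. Between 80.9% and 84.6% of the values below 100 in a rat were whole multiples of a single step (tolerance 0.02 of a read), which was taken as 1 read. The rest were not, so the reads could not be recovered as whole numbers and a count model was not used. Estimated reads and the level that 3 reads allow cover counting error only. The library preparation's strand setting in counting is not given in the sources used here.

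Genes that averaged 1 normalized count or more in the rats compared were tested with limma 3.58.1 in R 4.3.3 (lmFit, eBayes with a trend), two-sided, on log2(normalized count + 1), without covariates, with Benjamini-Hochberg adjustment over all genes tested. The threshold of 0.05 on the unadjusted p is that of the study. A fold change on this scale understates the change of low genes. The script was tested on simulated data first. The annotation does not say whether rats shared litters, and the study calls its WT controls littermates in several experiments. Litter was not modelled, so the p-values take the rats as independent, which was not checked. Members, lists and tests were chosen with earlier results of these data known, and the list counts are descriptions.

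The genes named were all members, the 3 genes most like each member (Pearson r over 28 rats, genes with a mean of at least 10) and from each list the gene with the smallest p in each comparison, apart from results that are not reported here. Emx1, Slc17a7, Neurod2, Eomes, Ttr and Tph1 were named beyond this rule after their values were seen, as were the correlations with region markers. The upper mean was planned over 4 genes and used 3, and 28 pairs were formed in place of 36.

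The alternatives were pseudocounts of 0.1 and 5, a filter at a mean of 10 or none, robust eBayes, quality weights per sample, a common fit of all 30 rats, median-ratio rescaling, quantile normalization, fits without libraries with Gabra6 above 100 and with a striatum covariate, and fits without each rat. Added after seeing the data were fits without libraries with Ttr above 1000 or Eomes above 100, and an olfactory bulb covariate. Sequence windows are from RefSeq (GRCr8). Analyses used Python 3.11.15 with numpy 2.4.6, pandas 2.3.3, scipy 1.17.1 and matplotlib 3.10.9.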

Additional observations from a re-analysis of the deposited data

Results flagged for a closer look

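In 27 groups of 10 values (8 members and the upper minus deep difference in 3 groups), a rat stood apart by Dixon's 95% critical value of 0.466 for 10 samples in 9 groups. Chance gives about 1 in 20 groups that are independent, and these are not, since 7 of the 9 hold the same library and the difference is computed from the members. In 7 of them the rat was WT rat 10RT43, with Cux2 at 441, Fezf2 at 0, Bcl11b at 7.18, Tbr1 at 16.7, Foxp2 at 62.2, Tle4 at 627 and an upper minus deep difference of 3.94 on the log2 scale. Gabra6 was at 17979 in this library. HIP rat 10RT46 stood apart with Cux2 at 732, in the library with Tph1 at 19081, and AKO rat 6KAH98 with Tle4 at 655.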

How the results depend on the processing

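With all 30 rats in one fit, 1 member had an unadjusted p under 0.05 in HIP vs. WT rats and 0 in HIP vs. AKO rats. Of all genes, 340 of 17085 and 2109 of 17092 passed in this fit. With sample-quality weights the counts were 1 in HIP vs. WT, 5 in AKO vs. WT and 2 in HIP vs. AKO rats, and over all genes they went from 439 to 885, from 1594 to 3930 and from 2179 to 4289. Genes past an adjusted p of 0.05 went from 17 to 857 in AKO vs. WT and from 29 to 1143 in HIP vs. AKO rats. By their unadjusted p, Cux1 (limma with weights, p = 0.000557) and Tle4 (p = 0.00227) were among the 857, both lower in AKO rats. No member was among the 1143. AKO vs. WT rats gave 3 members without Gabra6 above 100, with the striatum or the olfactory bulb covariate in those rats, or without Ttr above 1000 as well, and 5 without Eomes above 100 as well. Over all genes these fits gave 1746, 1778, 2079, 1558 and 1864, in that order. Without Gabra6 or Eomes above 100 or Ttr above 1000, HIP vs. AKO rats gave 2 members, beside 2254 of 16978 genes. With 1 rat left out, the counts were 0 to 1 in HIP vs. WT, 1 to 3 in AKO vs. WT and 0 to 2 in HIP vs. AKO rats. The counts over all genes were then 309 to 779, 1311 to 1974 and 1657 to 3005. The cause was not tested.

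Log2 fold changes turned as follows. In HIP vs. WT rats, sample-quality weights gave −0.16 for Cux2, −0.17 for Rorb, −0.0825 for Bcl11b, −0.0351 for Tbr1 and −0.0661 for Tle4. Without Gabra6 above 100 they were −0.21, −0.13, −0.16, −0.0257 and −0.00784. In those rats the striatum covariate gave −0.17 for Cux2, −0.15 for Rorb and −0.14 for Bcl11b, and the olfactory bulb covariate −0.23, −0.18, −0.12, −0.0460 for Tbr1 and −0.0122 for Tle4. Without Ttr above 1000 as well they were −0.0577 for Cux2, −0.12 for Bcl11b and −0.0163 for Tle4, and without Eomes above 100 too −0.0340 for Cux2, −0.00162 for Fezf2, −0.19 for Bcl11b, −0.0688 for Tbr1 and −0.0612 for Tle4. With 1 rat left out they ranged from −0.19 to 0.16 for Cux2, −0.0695 to 0.35 for Rorb, −0.20 to 0.64 for Bcl11b, −0.0343 to 0.80 for Tbr1 and −0.0240 to 0.0782 for Tle4.

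Tbr1 in AKO vs. WT rats was −0.15 with sample-quality weights, −0.19 without Gabra6 above 100, −0.16 and −0.17 with the striatum and olfactory bulb covariates, −0.20 without Ttr above 1000 as well and −0.26 without Eomes above 100 too, and −0.19 to 0.64 with 1 rat left out. Foxp2 in HIP vs. AKO rats was −0.0759 to 0.14 with 1 rat left out, and Fezf2 was −0.12 without Gabra6 or Eomes above 100 or Ttr above 1000. Cux1 in AKO vs. WT rats passed under all 14 other settings and with each of 20 rats left out.

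The labels give no replicate numbers that pair rats. Depth sets a floor of about 3 reads, which touches Fezf2 in 10RT43 alone.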

Other observations

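The lowest correlations with the members were described in the same way over 28 rats, without a test. St6galnac5, a sialyltransferase, had the lowest r with Cux1 (−0.88), Hmgn2, a nucleosome-binding protein, with Cux2 (−0.88), and Caly with Rorb (−0.89). Zfp709 was lowest for Fezf2 (−0.86), Marchf2 for Bcl11b (−0.88), Itm2b for Tbr1 (−0.86), Tmem140 for Foxp2 (−0.70) and Plekho1 for Tle4 (−0.78). Hmgn2 was also among the 3 lowest for Rorb (−0.85). Cux2 had an r of −0.69 with the mean level of 10 choroid plexus markers and Fezf2 an r of −0.63 with that of 7 thalamic markers (−0.69 and −0.51 without the 2 farthest rats).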
